A study of Mus musculus with 6 samples.

Results

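Splicing regulators of muscle were examined as a group of 10 genes, Rbm20, Rbm24, Rbm38, Rbfox1, Rbfox2, Mbnl1, Mbnl2, Celf1, Celf2 and Ptbp1, chosen by symbol among the 55401 gene identifiers of the count table. All 10 were in the table and all 10 passed the filter on low counts, together with 17222 genes tested in all. RNA was taken from the tibialis anterior (TA) of iMSBmal1 fl/fl mice (strain C57BL/6, genotype HSA-MCM-Bmal1-/-), which the methods give as male. In these mice a tamoxifen-inducible Cre under the human skeletal actin (HSA) promoter deletes the clock gene Bmal1 in muscle fibres, while other cells of the muscle keep it. Tamoxifen was given at 2 mg per day for 5 days to mice kept until 12 to 16 weeks of age, adeno-associated virus (AAV) was injected into the TA 4 weeks later, and the muscle was taken 4 weeks after that. The groups were AAV-GFP (n = 3) and AAV-RBM20 (n = 3), so every sample, controls included, carries the Bmal1 deletion and a virus. According to the methods, the AAV-RBM20 vector carried mouse Rbm20 cDNA with an HA tag under a CMV promoter and the dose injected was higher than that of AAV-GFP, so the transgene and the vector dose cannot be told apart. The list of muscles blotted for protein in the study names several mice per group, some of which gave a leg to each vector, but nothing ties these muscles to the sequenced libraries. Whether the 3 libraries of a group are separate mice is therefore not established, and the tests measure the spread between these samples.

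Alternative splicing lets a muscle gene make different proteins during development and in different fibre types, and it is steered by RNA-binding proteins that sit on or near exons and either favour or block their use. RBM20 represses exons of the titin gene Ttn and of other sarcomere and calcium-handling genes, and loss of its function gives long, compliant titin and dilated cardiomyopathy. RBFOX, MBNL and CELF proteins set the switch from fetal to adult exons in muscle, and PTBP1 represses muscle exons in undifferentiated cells.

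Total counts ranged from 41400132 to 54226618 per library, and counting error was at most 3.99% of a count for any of the 10 genes in any library. The libraries numbered 3 stood apart in both groups. Ttn took 4.48% and 9.05% of their counts against 16.9% to 17.8% in the other 4 libraries, and mitochondrially encoded genes took 11.4% and 12.5% against 6.41% to 7.66%. Markers of skeletal muscle fibres summed to between 80701 and 132837 CPM (counts scaled to a common library size) in the 6 libraries and markers of cardiac muscle to between 3.13 and 10.6 CPM, so markers of the labelled tissue were the most abundant.

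Delivery of Rbm20 was compared with GFP to ask which splicing regulators differed in level. Rbm20 was 2.91-fold higher in AAV-RBM20 muscle. The other 9 regulators differed by far less, with log2 fold changes between -0.24 and 0.35, and the intervals of all 9 spanned 0. With edgeR's quasi-likelihood test, 0 of the 10 genes had a Benjamini-Hochberg adjusted p under 0.05, as did 0 of the 17222 genes tested (0%). At an unadjusted p under 0.05 there was 1 of the 10, Rbm20, against 7.90% of all genes. DESeq2 gave Rbm20 alone of the 10 an adjusted p under 0.05 (0.349% of all genes it tested), and limma-voom gave it to 0. The same 1 gene passed when the replicate number from the titles was added to the edgeR fit as a block (0.145% of all genes), when DESeq2 had that block (3.52%), and when edgeR was run with no filter on low counts (0.0269%). The median log2 fold change was -0.085 over the 10 genes and -0.14 over the 9 without Rbm20, beside 0.0090 over all genes tested.

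**Figure D1:**
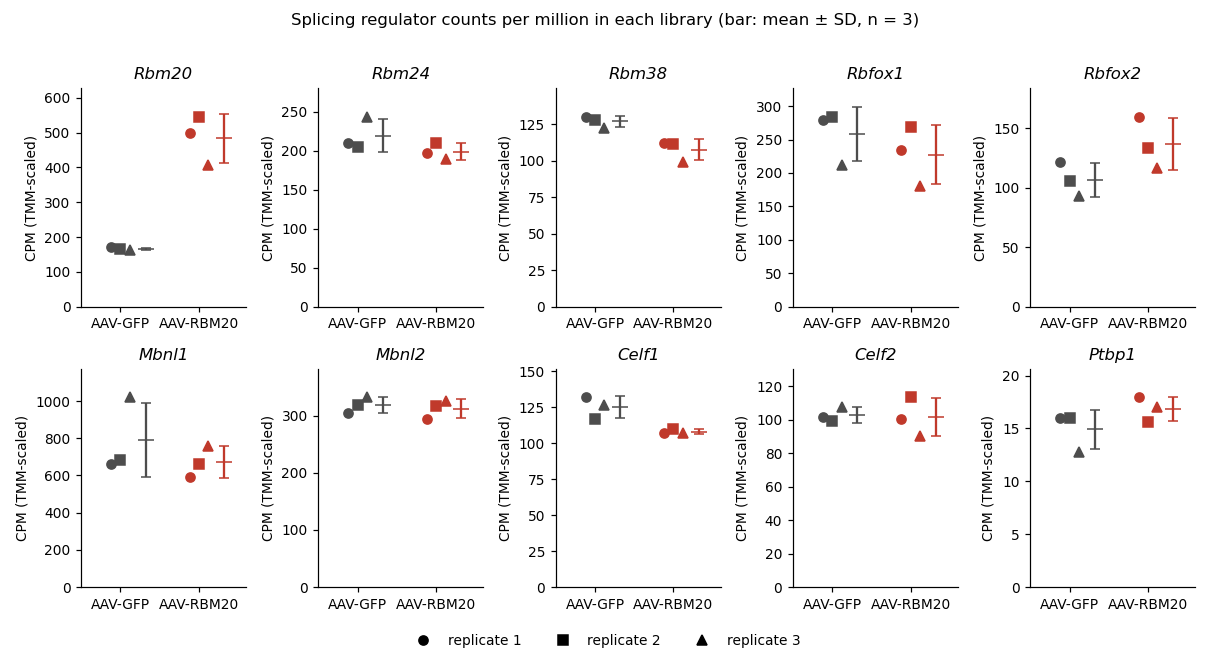
CPM (vertical axis of each panel, from 0, with its own range) of the 10 splicing regulators in the 3 AAV-GFP (grey) and 3 AAV-RBM20 (red) libraries, with the replicate number as the symbol and the mean ± SD (n = 3) beside them. Rbm20 lay between 164 and 170 CPM in AAV-GFP and between 406 and 545 CPM in AAV-RBM20, while Rbm38 and Celf1 were lower in all AAV-RBM20 libraries and the other 7 overlapped between groups.

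Rbm20 (ENSMUSG00000043639) lies on the plus strand of chromosome 19 at 53677306 to 53867080 in GRCm38, with 16 merged exons, and no annotated exon of another gene overlaps them. Its product is the repressor of titin exons that the vector also encodes. Rbm20 was measured at 170, 165 and 164 CPM in AAV-GFP replicates 1, 2 and 3 and at 499, 545 and 406 CPM in AAV-RBM20 replicates 1, 2 and 3. The groups did not overlap, the AAV-GFP libraries were within a few CPM of one another, and the AAV-RBM20 libraries were spread more widely, with replicate 3 the lowest. Mean values were 166 ± 3.20 CPM (SD, n = 3) and 484 ± 71.0 CPM (SD, n = 3), a coefficient of variation of 1.92% and 14.7%. The log2 fold change was 1.54 ± 0.15 (SE), with a 95% interval from 1.19 to 1.88, and the edgeR adjusted p was 0.121. With the replicate block it was 1.53 ± 0.11 (SE; edgeR adjusted p = 0.0107), and Rbm20 was higher in 3 of 3 pairs. The two-sided exact permutation p was 0.1, the lowest that 3 against 3 samples allow. Leaving out single libraries kept the log2 fold change between 1.44 and 1.66, but the adjusted p rose to 0.988 without AAV-RBM20 replicate 1.

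Among all genes tested Rbm20 ranked 1 by p, although other genes had larger fold changes. A total of 109 genes had a larger positive log2 fold change, of which 11 had a mean log2 CPM of at least 1, a level reached by 11555 genes. Vector and endogenous transcripts are added together in a count per gene.

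Rbm24 and Rbm38 are closely related single-motif RNA-binding proteins of striated muscle. RBM24 promotes inclusion of muscle exons, and RBM38 acts on splicing and mRNA stability during muscle differentiation. Rbm24 (ENSMUSG00000038132; chromosome 13, 46418434 to 46431095, plus strand) was measured at 210, 205 and 244 CPM in AAV-GFP and at 197, 211 and 190 CPM in AAV-RBM20. These ranges overlapped, and AAV-GFP replicate 3 was the highest library. The log2 fold change was -0.14 ± 0.13 (SE), with a 95% interval from -0.44 to 0.16, and was -0.059 without AAV-GFP replicate 3.

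Rbm38 (ENSMUSG00000027510; chromosome 2, 173020498 to 173034734, plus strand) was measured at 130, 128 and 123 CPM in AAV-GFP and at 112, 111 and 99.1 CPM in AAV-RBM20. The groups did not overlap, with AAV-RBM20 below AAV-GFP throughout, and the mean was 15.3% lower. Rbm38 was 1 of 2 regulators with this order, a share to be read beside the 9.04% of all genes that had it, and 1 of 10 had the opposite order (Rbm20) beside 7.71% of all genes. The log2 fold change of -0.24 ± 0.12 (SE) had a 95% interval from -0.51 to 0.035 and an edgeR adjusted p of 0.647, and the exact permutation p of 0.1 was the lowest possible. Exons of 2 genes on the opposite strand, Gm20490 and Gm14453, overlap Rbm38, and since the strand setting of the counting was not stated, reads of these genes cannot be told apart.

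Both RBFOX proteins bind the same short RNA element, from which they promote or repress neighbouring exons according to the side on which they bind. Rbfox1 (ENSMUSG00000008658; chromosome 16, 5885355 to 7411526, plus strand) is the form best known from muscle, heart and brain, and Rbfox2 (ENSMUSG00000033565; chromosome 15, 77078990 to 77307004, minus strand) is made more broadly. Rbfox1 was measured at 279, 284 and 212 CPM in AAV-GFP and at 234, 268 and 180 CPM in AAV-RBM20. In both groups replicate 3 was the lowest, at 0.754 times the mean of replicates 1 and 2 in AAV-GFP against 0.718 times in AAV-RBM20, and the groups overlapped. The log2 fold change was -0.18 ± 0.19 (SE), with a 95% interval from -0.62 to 0.25. It ranged from -0.32 without AAV-RBM20 replicate 2 to -0.033 without AAV-RBM20 replicate 3, and was -0.31 without AAV-GFP replicate 3 and -0.11 without AAV-GFP replicate 2.

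Rbfox2 was measured at 122, 106 and 93.1 CPM in AAV-GFP and at 160, 134 and 116 CPM in AAV-RBM20. The ranges overlapped, since AAV-RBM20 replicate 3 was below AAV-GFP replicate 1, while each AAV-RBM20 library was above the AAV-GFP library of its number. Rbfox2 and Rbm20 were the 2 regulators higher in all 3 pairs (22.2% of all genes were), and 5 were lower in all 3 pairs (23.0% of all genes). The mean of 137 ± 21.8 CPM (SD, n = 3) was 1.28 times that of 107 ± 14.3 CPM (SD, n = 3) in AAV-GFP. After Rbm20 this was the largest difference among the 10, a log2 fold change of 0.35 ± 0.17 (SE) with a 95% interval from -0.027 to 0.74 and an edgeR adjusted p of 0.641. It was 0.23 without AAV-RBM20 replicate 1. The adjusted p was 0.129 with the replicate block in edgeR, where the interval ran from 0.15 to 0.55.

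The balance of related regulators within a library was examined for 6 pairs of genes, a quantity that does not depend on library size. The ratio of Rbfox1 to Rbfox2 counts was 2.30, 2.68 and 2.28 in AAV-GFP replicates 1, 2 and 3 and 1.46, 2.01 and 1.55 in AAV-RBM20. Every AAV-RBM20 library had a lower ratio than every AAV-GFP library, and the geometric means were 1.66 and 2.41. The difference of -0.54 on the log2 scale had an exact permutation p of 0.1, the lowest possible, and 0.6 after Benjamini-Hochberg adjustment over the 6 ratios examined. It lay between -0.68 and -0.45 when single libraries were left out, and was -0.53 without both libraries numbered 3. Gene lengths enter neither these differences nor their order, but the ratios themselves are of counts and are not ratios of molecules.

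**Figure D2:**
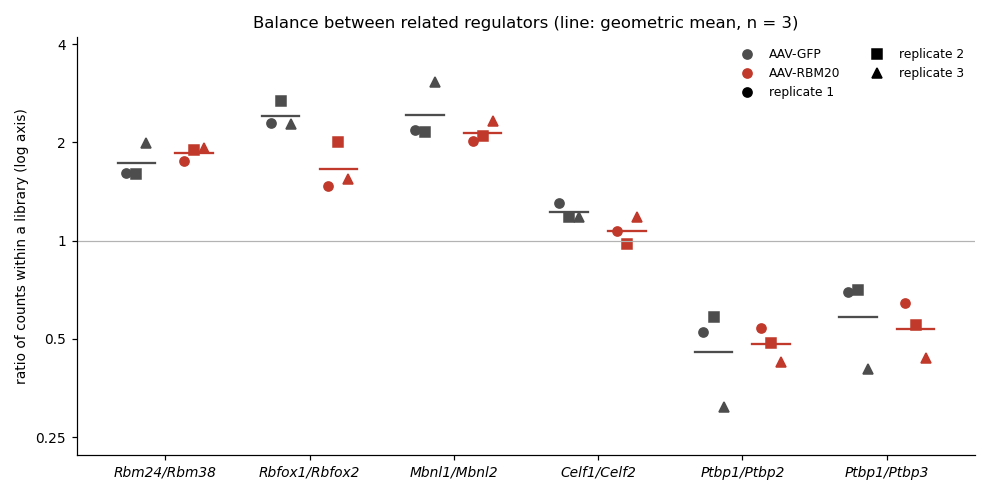
Ratio of the counts of related regulators within each library (log axis) for 6 pairs of genes in AAV-GFP (grey) and AAV-RBM20 (red), with the replicate number as the symbol and a line at the geometric mean (n = 3). The ratio of Rbfox1 to Rbfox2 was 2.28 to 2.68 in AAV-GFP against 1.46 to 2.01 in AAV-RBM20, and the groups overlapped for the other 5 ratios.

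Muscleblind-like proteins promote adult exon patterns and are the proteins trapped by expanded CUG repeats in myotonic dystrophy. Mbnl1 (ENSMUSG00000027763; chromosome 3, 60472830 to 60629750, plus strand) was measured at 663, 685 and 1020 CPM in AAV-GFP against 593, 663 and 760 CPM in AAV-RBM20. Replicate 3 was the highest in each group, 1.51 times and 1.21 times the mean of the other two, and the groups overlapped. Mbnl1 was lower in AAV-RBM20 in each of the 3 pairs, with a log2 fold change of -0.23 ± 0.20 (SE) and a 95% interval from -0.70 to 0.24. Without AAV-GFP replicate 3 the value was -0.0070, without AAV-RBM20 replicate 1 it was -0.14, and without both libraries numbered 3 it was -0.095.

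Mbnl2 (ENSMUSG00000022139; chromosome 14, 120275669 to 120431697, plus strand) varied little between libraries, at 305, 319 and 332 CPM in AAV-GFP against 294, 316 and 326 CPM in AAV-RBM20. The groups overlapped almost entirely, and the log2 fold change was -0.030 ± 0.12 (SE), with a 95% interval from -0.31 to 0.25, and its sign was the opposite (0.015) with upper quartile factors. Exons of 1 gene on the opposite strand, Gm26679, overlap Mbnl2. The ratio of Mbnl1 to Mbnl2 counts was 2.18, 2.15 and 3.07 in AAV-GFP against 2.02, 2.10 and 2.33 in AAV-RBM20, with an exact permutation p of 0.5.

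CELF proteins act against MBNL proteins on many of the same exons, and CELF1 falls in muscle after birth. Celf1 (ENSMUSG00000005506; chromosome 2, 90940382 to 91019497, plus strand) was measured at 132, 117 and 127 CPM in AAV-GFP and at 107, 110 and 107 CPM in AAV-RBM20. Like Rbm38, Celf1 was lower in all AAV-RBM20 libraries than in any AAV-GFP library, at 108 ± 1.72 against 125 ± 7.59 CPM (SD, n = 3). The log2 fold change of -0.21 ± 0.12 (SE) had a 95% interval from -0.48 to 0.056 and an edgeR adjusted p of 0.657.

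Celf2 (ENSMUSG00000002107; chromosome 2, 6539694 to 7509563, minus strand) was measured at 101, 98.9 and 108 CPM in AAV-GFP and at 100.3, 113 and 90.5 CPM in AAV-RBM20. The AAV-GFP range fell within the AAV-RBM20 range, and the log2 fold change was -0.019 ± 0.13 (SE), with a 95% interval from -0.32 to 0.28, and its sign also turned (0.025) with upper quartile factors. Ratios of Celf1 to Celf2 counts were 1.30, 1.18 and 1.18 in AAV-GFP against 1.07, 0.973 and 1.18 in AAV-RBM20, and their exact permutation p was 0.2.

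Ptbp1 (ENSMUSG00000006498; chromosome 10, 79854427 to 79864771, plus strand) encodes a polypyrimidine tract-binding repressor that competes with activators of muscle exons. It was measured at 16.0, 16.0 and 12.8 CPM in AAV-GFP against 17.9, 15.6 and 17.0 CPM in AAV-RBM20. The groups overlapped, and the log2 fold change was 0.17 ± 0.14 (SE), with a 95% interval from -0.14 to 0.49, and was 0.074 without AAV-GFP replicate 3. Exons of 3 genes on the opposite strand (E130317F20Rik, Plppr3 and Gm17134) overlap Ptbp1, and 0.758% of the 100-base words of its transcripts also occur in Gm4900, while the other 9 genes shared 0 such words with transcripts of another gene.

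Ptbp1 has the paralogues Ptbp2, best known from neurons, and Ptbp3, known from blood cells. The ratio of Ptbp1 to Ptbp2 counts was 0.523, 0.585 and 0.309 in AAV-GFP against 0.539, 0.486 and 0.424 in AAV-RBM20, with an exact permutation p of 0.9. The ratio to Ptbp3 was 0.696, 0.705 and 0.403 in AAV-GFP against 0.643, 0.553 and 0.435 in AAV-RBM20, with an exact permutation p of 0.6. In each group and for both ratios replicate 3 was the lowest. The exact permutation p of the ratio of Rbm24 to Rbm38 was 0.4, the last of the 6 ratios, and all 6 adjusted values were 0.6 or higher.

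**Figure D3:**
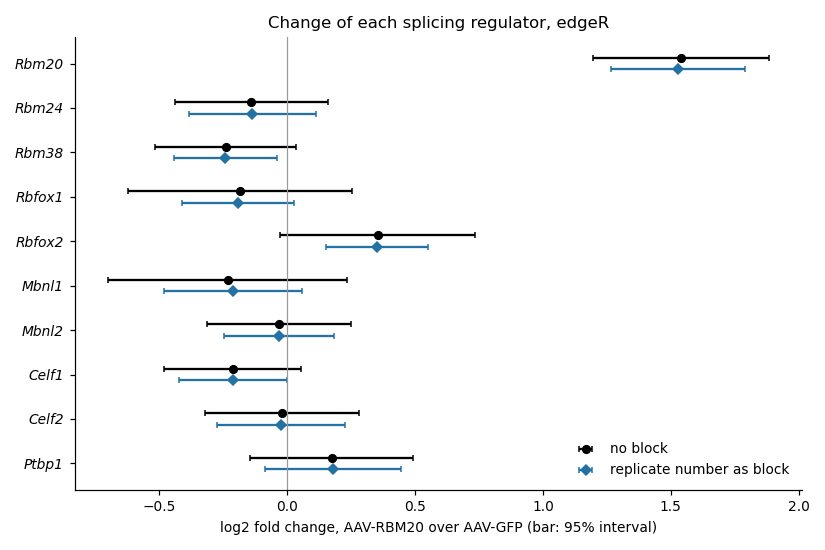
Log2 fold change of AAV-RBM20 over AAV-GFP (horizontal axis) with its 95% interval for each of the 10 regulators, from edgeR without a block (black circles) and with the replicate number as a block (blue diamonds). Only the Rbm20 intervals, 1.19 to 1.88 and 1.27 to 1.79, lie away from all others, and of the 9 other genes those of Rbm38 and Rbfox2 exclude 0 in the blocked fit, in which 18.8% of all genes had an unadjusted p under 0.05.

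The distance of each library numbered 3 from the others of its group was set beside the group difference. It was taken as the log2 difference between replicate 3 and the mean of replicates 1 and 2. In both groups it was larger in size than the group difference for Rbfox1, Mbnl1, Mbnl2 and Celf2. The group differences of Mbnl2 (-0.030) and Celf2 (-0.019) were near 0 and easily exceeded. At equal spread, 1 library against a mean of 2 varies more than a difference between means of 3. A larger distance is therefore not by itself a result about these genes, and its share over all genes was not computed. In replicate 3 of both groups Mbnl1 and Mbnl2 were higher, and Rbm20, Rbm38, Rbfox1 and Rbfox2 lower, than the mean of replicates 1 and 2. Rbm20 in AAV-RBM20 replicate 3 was 0.777 times the mean of the other two, against 0.977 times in AAV-GFP. Without both libraries numbered 3 the log2 fold change of Rbm20 was 1.65 (edgeR adjusted p = 2.28e-06, a threshold that 4.00% of all genes passed in that fit), and those of the other 9 lay between -0.20 and 0.37 with 0 of them past the threshold.

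**Figure D4:**
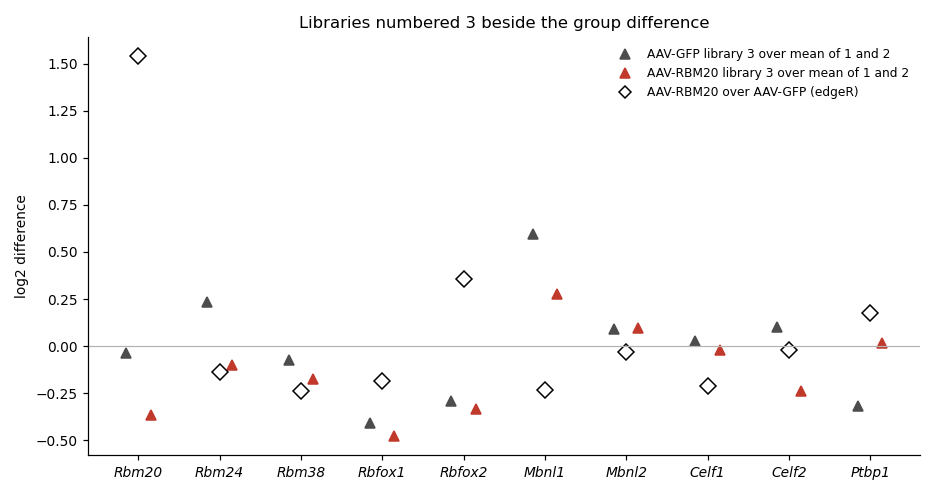
Log2 difference (vertical axis) between replicate 3 and the mean of replicates 1 and 2 in AAV-GFP (grey triangles) and AAV-RBM20 (red triangles), beside the log2 fold change between groups (open diamonds), for the 10 regulators. Mbnl1 replicate 3 was higher by 0.60 and 0.28 and Rbfox1 replicate 3 lower, at -0.41 and -0.48, whereas the group difference of Rbm20, 1.54, exceeded the distance of either replicate 3.

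Levels of different genes were set side by side as CPM per kilobase of merged exon. In AAV-GFP the order of the mean levels was Rbm24 (62.8 ± 6.09, SD, n = 3), Rbfox1 (58.7 ± 9.11), Rbm38 (44.2 ± 1.35), Mbnl1 (42.2 ± 10.7), Mbnl2 (26.6 ± 1.13), Rbm20 (24.5 ± 0.47), Celf1 (14.8 ± 0.90), Rbfox2 (13.1 ± 1.76), Celf2 (3.97 ± 0.17) and Ptbp1 (3.15 ± 0.39). Of the neighbours in this order, Rbm24 and Rbfox1, Rbm38 and Mbnl1, and Celf1 and Rbfox2 overlapped in range. In AAV-RBM20 the level of Rbm20 was 73.5, 80.3 and 59.8 CPM per kb in replicates 1, 2 and 3, and its mean of 71.2 ± 10.5 (SD, n = 3) ranked 1, against 6 in AAV-GFP. It was above Rbm24 in 3 of 3 libraries, although the ranges of these 2 genes overlapped across libraries. The ranges of Rbm24 and Rbfox1, Rbm38 and Mbnl1, and Celf2 and Ptbp1 overlapped there as well.

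Rbm20 made up 8.56%, 8.42% and 8.03% of the summed level per kb of the 10 regulators in AAV-GFP replicates 1, 2 and 3 and 23.1%, 23.7% and 20.5% in AAV-RBM20. The other 9 together summed to 268, 265 and 276 CPM per kb in AAV-GFP and to 245, 259 and 232 CPM per kb in AAV-RBM20. The order of levels depended on the length used. Merged exons of Mbnl1 cover 18.7 kb and its longest transcript 5655 bases, and those of Celf2 cover 25.9 kb and 8856 bases. Per kilobase of the longest annotated transcript, Mbnl1 was the highest in both groups, at 139.6 CPM per kb in AAV-GFP, and Rbm20 ranked 6 in AAV-GFP against 2 in AAV-RBM20. The length of the vector transcript was not given in the sources used here.

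**Figure D5:**
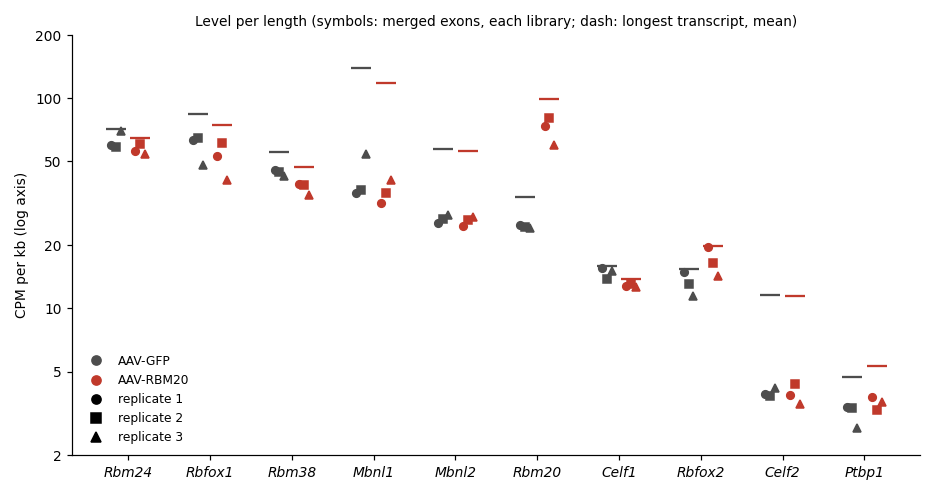
Level per kilobase (log axis) of the 10 regulators, in the order of their AAV-GFP means, for AAV-GFP (grey) and AAV-RBM20 (red). Symbols give each library per kb of merged exon and dashes the group mean per kb of the longest transcript. Rbm20 was at 24.5 and 71.2 CPM per kb of merged exon in the AAV-GFP and AAV-RBM20 means, and Mbnl1 and Celf2 depended most on the length used.

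Other regulators of muscle splicing were examined as a list of 28 genes, of which 21 were tested and Rbfox3, Celf3, Celf5, Celf6, Raver1, Esrp1 and Esrp2 did not pass the filter. None (0) had an edgeR adjusted p under 0.05, with or without the replicate block or with DESeq2. At an unadjusted p under 0.05, 1 was higher and 1 lower of the 21, a share near the 7.90% of all genes, and the median log2 fold change was 0.093. These were Mbnl3, the muscleblind-like protein of immature muscle, and Fxr2, an RNA-binding relative of the fragile X protein. Mbnl3 was at 0.664, 0.335 and 0.513 CPM in AAV-GFP and at 1.37, 0.622 and 1.30 CPM in AAV-RBM20, values that overlapped and rest on few counts, and the log2 fold change was 1.13 ± 0.42 (SE; edgeR adjusted p = 0.618). Fxr2 was at 124, 109 and 123 CPM in AAV-GFP and at 101, 97.7 and 89.2 CPM in AAV-RBM20, groups that did not overlap, and the log2 fold change was -0.31 ± 0.12 (SE; edgeR adjusted p = 0.618). Next by p were Khdrbs3 (0.43 ± 0.21, log2 fold change and SE), which encodes a STAR-family splicing factor, and Rbpms2 (0.49 ± 0.29), both with overlapping ranges.

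Kinases and an importer that act on splicing factors formed a list of 10 genes, all tested, with a median log2 fold change of -0.030. Its count past the adjusted threshold was 0 in edgeR, in the blocked fit and in DESeq2, and 1 of the 10 was lower at an unadjusted p under 0.05, beside 7.90% of all genes. That gene was Akt2, an insulin-regulated kinase, which was at 233, 230 and 274 CPM in AAV-GFP and at 180, 208 and 178 CPM in AAV-RBM20, without overlap. Its log2 fold change was -0.38 ± 0.14 (SE; edgeR adjusted p = 0.618). The splicing kinases Clk3 (-0.33 ± 0.17, log2 fold change and SE), Srpk3 (-0.15 ± 0.14), which is enriched in muscle, and Clk4 (0.079 ± 0.12) overlapped between groups.

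Known splice targets of RBM20 were read as whole-gene counts, which hold no information on which exons were used. All 20 listed targets were tested, 0 had an adjusted p under 0.05 in edgeR, in the blocked fit or in DESeq2, and their median log2 fold change was 0.020. At an unadjusted p under 0.05, 1 of the 20 was higher, below the 7.90% of all genes. Tpm1, the tropomyosin of thin filaments, was at 7415, 6843 and 12712 CPM in AAV-GFP against 5796, 6528 and 5841 CPM in AAV-RBM20, without overlap, and the log2 fold change was -0.57 ± 0.26 (SE; edgeR adjusted p = 0.641). Trdn, which encodes triadin of the calcium release complex, and Sh3kbp1 followed, with log2 fold changes of -0.45 ± 0.22 (SE) and 0.24 ± 0.17 (SE) and overlapping ranges. AAV-GFP replicate 3 was the highest library for Tpm1, and for Trdn at 1508 CPM against 981 and 897 CPM in AAV-GFP replicates 1 and 2.

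Markers of cell types were read beside these values. Of 12 macrophage markers, 12 had a positive log2 fold change and 1 was higher without overlap between groups (7.71% of all genes were), and their summed level was 36.4 to 126 CPM in AAV-GFP against 81.5 to 203 CPM in AAV-RBM20. Of 7 markers of satellite cells and regenerating fibres, 4 were higher and 1 lower without overlap, beside 7.71% and 9.04% of all genes, at summed levels of 55.0 to 56.1 CPM and 52.0 to 71.7 CPM. The 4 were Myog, Myh3, Myh8 and Ncam1 (log2 fold changes 0.54, 2.00, 2.00 and 0.70), each at 11.1 CPM or less in every library. The lower gene was Myod1 (-0.32), which at 31.0 to 40.5 CPM weighed most in the sum. Of 10 markers of skeletal fibres, 3 were lower without overlap (9.04% of all genes were), and the median log2 fold change was -0.37. Summed levels of fibro-adipogenic markers were 493 to 1049 CPM and 853 to 1088 CPM, of endothelial markers 205 to 493 CPM and 320 to 441 CPM, and of slow fibre markers 44.4 to 85.9 CPM and 80.0 to 133 CPM. Smooth muscle markers summed to 52.5 to 81.1 CPM and 51.2 to 67.6 CPM, Schwann cell markers to 9.21 to 28.0 CPM and 10.4 to 23.1 CPM, adipocyte markers to 0.0984 to 5.70 CPM and 0.238 to 3.52 CPM, and erythroid markers to 4.03 to 10.6 CPM and 2.69 to 27.3 CPM. The ranges of the summed level overlapped between groups for every list, cardiac muscle included. For macrophage and fibro-adipogenic markers the overlap rested on AAV-GFP replicate 3 (126 and 1049 CPM). AAV-GFP replicates 1 and 2 (38.7 and 36.4 CPM, 539 and 493 CPM) lay below every AAV-RBM20 library. Both sums were higher in AAV-RBM20 in each same-numbered pair, and no other list was higher or lower in each pair. The overlap of fibre markers was narrow, with AAV-RBM20 reaching 123759 CPM and AAV-GFP falling to 123597 CPM. No marker of any list had an edgeR adjusted p under 0.05 (0), and no list had a marker at 0 in all 6 libraries. In bulk muscle fewer cells of a type and less RNA per cell cannot be told apart, and the part of these cells in the values of Rbm38, Celf1, Rbfox2 and Ptbp1 was not tested.

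The genes whose pattern over the 6 libraries was most like that of each regulator were taken as those with the smallest root mean square difference between log2 CPM profiles, each centred on its own mean, among 11554 genes. For Rbm20 these were Runx1 (0.244), Rap1gap2 (0.276), Gm22442 (0.301), Prune2 (0.320) and Cyfip2 (0.323). Runx1, a transcription factor that rises in denervated muscle, was at 4.77, 6.01 and 5.95 CPM in AAV-GFP and at 13.8, 12.4 and 13.5 CPM in AAV-RBM20. For the other 9 regulators the distances to the closest genes were smaller, at 0.018 to 0.041. This distance grows with how much a profile varies. The root mean square of the centred profile was 0.775 for Rbm20 against 0.058 to 0.248 for the other 9. Smaller distances are therefore not by themselves a closer likeness. The closest genes were Coq9 for Rbm24, Atpaf1 for Rbm38, Pde4dip for Rbfox1, Cc2d2a for Rbfox2, Rnf170 for Mbnl1, Fgfr1op for Mbnl2, Rdx for Celf1, Mrpl38 for Celf2 and Anxa3 for Ptbp1. Within the group of 10, Rbm38 and Celf1 were closest to each other (0.078), Rbm24 and Celf2 likewise (0.087), and Rbm20 was 0.607 from Rbfox2, its nearest. With 6 libraries shared by all genes these distances are descriptions.

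The promoters were searched for CACGTG, an E-box that reads the same on both strands and is bound by BMAL1 with its partner CLOCK. It is shown because Bmal1 was deleted in every sample. No value here measures binding, and no comparison here has Bmal1 present. RefSeq windows (GRCm38.p6) from 250 bases before to 50 bases after a start were at hand for 8 of the 10 genes, 14 windows in all. Rbm20 and Rbfox2 had no window, so their promoters were not searched. CACGTG was found in 2 of these 14 windows, 1 of Mbnl1 and 1 of Ptbp1, beside 7.15% of 32851 windows genome-wide. The matches are printed as plus-strand sequence. They lie at chr3:60472719-60472748 (99 bases before the start) and chr3:60472819-60472848 (the other Mbnl1 match, just after it) and at chr10:79854375-79854404 (45 bases before it). Capitals mark the motif in the 30 bases around each match.
Mbnl1 upstream match: aactttatgtccCACGTGtcagttccacca
Mbnl1 match at the start: gctgtttgctcaCACGTGagcattgcttga
Ptbp1 match: ctcagatggtatCACGTGcgtctactcatt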

How the data were processed

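The authors mapped paired reads (2×100 bases) of ribosomal RNA-depleted, stranded libraries with HISAT2 against mm10, and HTSeq gave a count for each Ensembl gene, as named in the study's methods and processing notes. The deposited counts are whole numbers that the authors did not normalise. The strand setting, annotation and versions were not given in the sources used here. A second table, normalised by the authors, was not used. A listed gene is not reported here. Symbols and GRCm38 positions came from GENCODE M21, which holds 55141 of 55401 identifiers. The 10 regulators and all lists were chosen with earlier results of these data known.

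Groups came from the labels. Depth was 41400132 to 54226618 counts per library. Counting errors cover counting only, whereas the intervals of the log2 fold changes come from the edgeR fits and include the spread between libraries. Counts of replicates differed beyond sampling noise (chi-square per degree of freedom 15.1 to 545), so each was kept as a sample. AAV-RBM20 was compared with AAV-GFP with edgeR 4.0.16 (glmQLFit with robust estimation, glmQLFTest, filterByExpr, TMM) in R 4.3.3, with Benjamini-Hochberg adjustment over all 17222 genes and a threshold of 0.05, and no covariate. CPM used TMM-scaled library sizes. Log2 CPM used a prior count of 2, and ratios an added count of 0.5. Exact permutation tests were two-sided. Scripts were tested on simulated data. All 10 regulators were named whatever they showed, with up to 4 genes of smallest p per list, and the closest 5 genes for Rbm20 and 1 for each other regulator.

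The replicate numbers 1 to 3 of the titles were checked for pairing. Deviations from group means correlated across genes, which are not independent replicates, at 0.42, 0.20 and 0.48 between same-numbered libraries, all above 0.1, so the replicate numbers were taken to pair the samples. AAV-GFP 2 with AAV-RBM20 1 (0.22) and AAV-GFP 1 with AAV-RBM20 2 (0.13) also exceeded 0.1, so replicates 1 and 2 were not separated, and the other 4 values, each with a single library numbered 3, were -0.42 to -0.22. The pairing was checked on the same expression values that the blocked fits and the pair counts use, so it gives them no separate support. What a number stands for is not labelled, and descriptions number the AAV-RBM20 samples 4 to 6. Alternatives were DESeq2 1.42.0, limma-voom 3.58.1, other size factors and filters, the block, leaving out libraries, and leaving out mitochondrial and Ttn or Rbm20 counts.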

Additional observations from a re-analysis of the deposited data

How the results depend on the processing

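Of 189 log2 fold changes of the 10 regulators under alternatives, 177 kept their direction and side of the threshold, 5 passed it where the reported fit did not and 7 changed sign. None could fall back, since 0 of the 10 passed in the reported fit. The 5 were all of Rbm20. Its log2 fold change was 1.53 without a low-count filter (adjusted p 0.00202), 1.52 with DESeq2 (4.42e-15), 1.53 with the replicate block (0.0107), 1.65 without both libraries numbered 3 (2.28e-06) and 1.51 with DESeq2 and the replicate block (1.10e-29), the last chosen after seeing the data. In these 5 settings 1 of the 10 regulators passed, and of all genes 8, 71, 25, 690 and 505 passed, against 0 in the reported fit. No list gene passed except 2 without both libraries numbered 3 (1 of them Clk3, which was lower) and 2 with DESeq2 and the block (1 of them Trdn, which was lower). The replicate block changed the call of no other regulator. The other adjusted p values of Rbm20 reached 0.999 without both libraries numbered 1, and its log2 fold change lay between 1.42 and 1.66 throughout.

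The changes of sign were in values near 0. Mbnl2 was at 0.015 with upper quartile factors, and between -0.065 and 0.016 when single libraries were left out. Celf2 was at 0.025 with upper quartile factors, 0.0072 with a filter of 1 CPM in 3 libraries, 0.098 without both libraries numbered 3, and between -0.11 and 0.065 when single libraries were left out. The log2 difference of the Ptbp1 to Ptbp2 ratio was -0.11 without both libraries numbered 3 and -0.20 to 0.26 without single libraries, and that of Ptbp1 to Ptbp3 was -0.38 to 0.033. Per kb of the longest transcript the AAV-GFP levels were 34.0 for Rbm20, 71.1 for Rbm24, 55.6 for Rbm38, 84.4 for Rbfox1, 15.5 for Rbfox2, 139.6 for Mbnl1, 57.3 for Mbnl2, 16.0 for Celf1, 11.6 for Celf2 and 4.71 for Ptbp1. Apart from length, the cause was not tested. With 3 libraries a group, no exact test of a single gene could reach 0.05.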
